A study of Mus musculus with 6 samples.

Results

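Collagen chain genes were taken as all genes whose symbol on the array platform has the form Col, a number, the letter a and a second number, provided that a probe set was assigned to that gene alone. They were 42 of the 18193 genes with such a probe set, and they held 82 of the 45037 probe sets tested. Each gene was read from its brightest probe set, the one with the highest mean over the 6 arrays. That mean includes the CD133 high arrays. In CD133 low alone, another probe set had the higher mean for Col5a1 (11.38 against 11.21), Col27a1 (8.05 against 7.97) and Col9a3 (3.18 against 3.03). For these genes the choice of probe set depended on the CD133 high arrays. By the structures they build, 11 were fibrillar collagens, 8 basement membrane collagens (the 6 type IV chains with collagens XV and XVIII) and 23 other collagens. Col6a6 and Col28a1 had no probe set of their own and were not analysed here.

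The samples came from tumours grown under the skin of syngeneic mice from 344SQ, a lung adenocarcinoma line derived from a mouse carrying the KrasLA1/+ and p53R172HdelG/+ alleles. Both fractions share this line and these alleles, and no sample was labelled with a drug. Flow cytometry separated the tumours by CD133, the surface glycoprotein that Prom1 encodes, and the CD133 high and the CD133 low cells were each measured on 3 arrays. The ages of the mice and the number of tumours are not given in the sources used here, nor whether replicate arrays hold separate animals. The p-values therefore measure no more than the spread among these 6 arrays, which may be technical.

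Collagens are secreted or membrane proteins whose chains wind into triple helices. The fibrillar types I, III and V form the cross-striated fibrils that give connective tissue its strength, type IV forms the sheet-like network under epithelia and around vessels, and the FACIT collagens (fibril-associated collagens with interrupted helices) attach to fibril surfaces. In solid tumours fibrillar collagens are made mainly by fibroblasts, whereas type IV chains are also made by epithelial and endothelial cells.

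All values are log2 probe set values, on which a difference of 1 is a 2-fold change, and every difference is CD133 high minus CD133 low. Values of different probe sets are not comparable as amounts of RNA, so levels were not ranked between genes. The median per array lay between 6.60 and 6.77. CD133 high replicates 2 and 3 stood apart from the other 4 arrays: their mean Spearman correlation with the CD133 low arrays was 0.929 and 0.927, against 0.973 for CD133 high replicate 1. These correlations run over probe sets, and probe sets are no independent replicates. The control probe set at the 3′ end of Gapdh exceeded the one in the middle by 0.44 and 0.46 on CD133 high replicates 2 and 3, and by −0.13 to −0.07 on the other arrays. The mean of the bacterial hybridisation controls was 11.29 and 11.04 on these arrays and 10.19 to 10.51 on the others. Prom1 checks the labels: it read 5.49, 5.92 and 6.06 in CD133 low and 6.80, 6.63 and 6.40 in CD133 high arrays, a difference of 0.79 (SE 0.26, adjusted p = 0.297 from limma). The part of array quality in the differences below was not tested.

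No collagen gene passed the test between the fractions, but more of them had a higher than a lower mean in the CD133 high arrays. Of the 42 genes, 32 had a positive and 10 a negative difference, with a median of 0.23, while 9112 of all 18193 genes had a positive and 9061 a negative one, with a median of 0.0013. Without CD133 high replicate 3 the collagen median was 0.12, with 29 positive and 13 negative differences. At an adjusted p under 0.05 from limma 0 collagen genes were called, against 0.022% of all genes called higher and 0.231% called lower. The smallest adjusted p of a collagen gene was 0.288. At an unadjusted p under 0.05, 6 collagen genes were higher and 2 lower, against 8.3% of all genes higher and 9.94% lower. Every CD133 high array exceeded every CD133 low array for 6 of 42 genes (14.3%, against 10.8% of all genes) and lay below for 3 (7.14%, against 12.8%). In these sorted bulk samples, fewer cells of a type and less RNA per cell cannot be told apart.

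**Figure D1:**
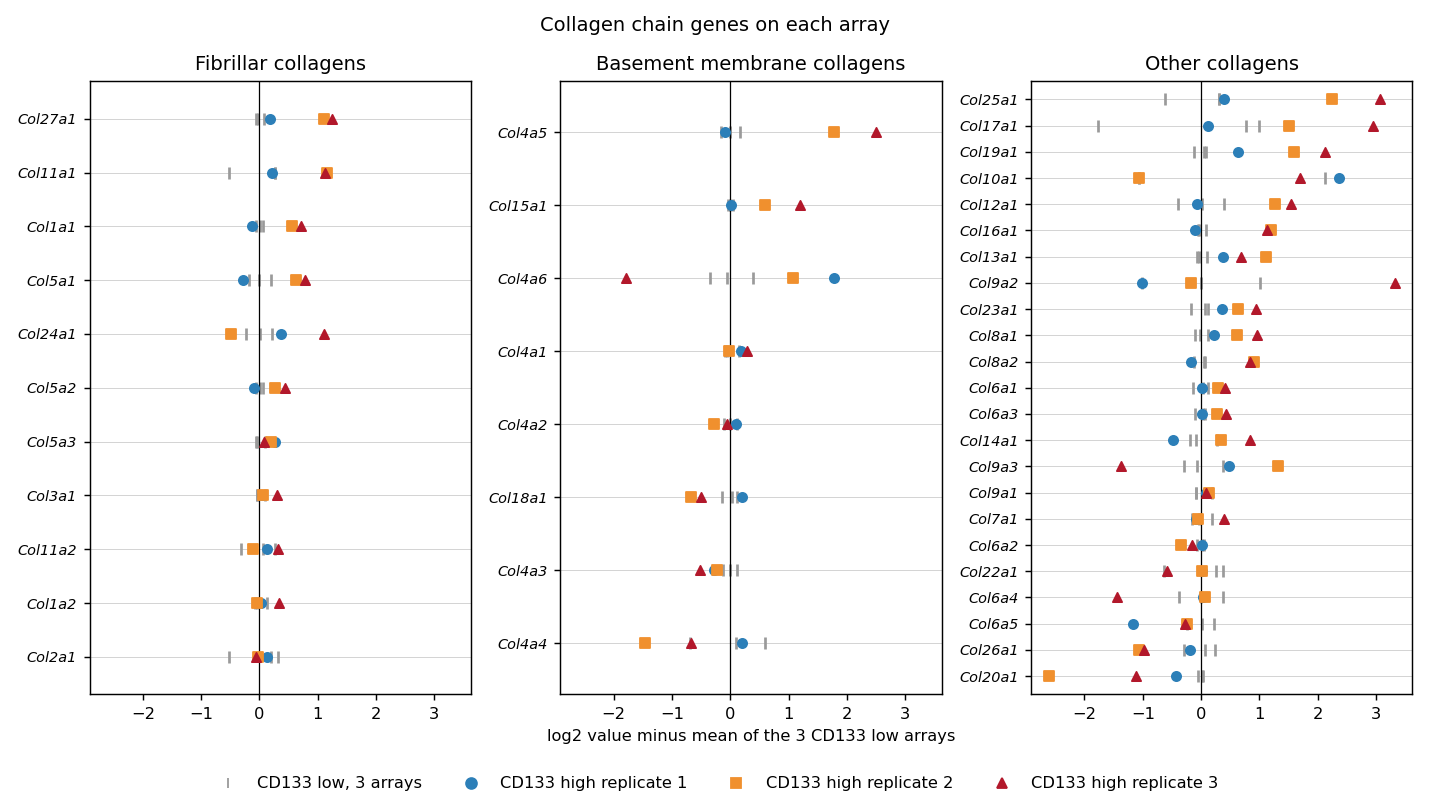
Values of the 42 collagen chain genes on each array, as the log2 value minus the CD133 low mean (horizontal axis), with the genes of each class ordered by the difference between fractions. Grey bars are the 3 CD133 low arrays and coloured symbols the CD133 high arrays: replicate 1 (blue circles) lies within the range of the CD133 low arrays for 20 of 42 genes, and replicate 3 (red triangles) is the highest of the 6 arrays for 22.

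CD133 high replicates 2 and 3 differed more from the CD133 low arrays than replicate 1 did. With the CD133 low mean as 0, the median over the 42 genes was 0.04 on CD133 high replicate 1, 0.23 on replicate 2 and 0.42 on replicate 3, and between −0.03 and 0.06 on the CD133 low arrays. Replicate 1 lay within the range of the CD133 low arrays for 20 collagen genes (47.6%, against 41.2% of all genes). Replicates 2 and 3 both lay above all CD133 low arrays for 19 of them (45.2%, against 28.3% of all genes) and below for 6 (14.3%, against 29.2%). CD133 high replicate 3 was the highest of the 6 arrays for 22 genes, or 52.4%, against 21.1% of all genes. With CD133 high replicate 1 left out, which leaves 2 CD133 high arrays, limma called 13 collagen genes higher and 3 lower, where 11.7% of all genes were called higher and 14.6% lower. Leaving out any other single array called 0 collagen genes. Of all 45037 probe sets these fits called 1 without CD133 high replicate 2 and 0 in each other case.

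Among the fibrillar collagens all 11 differences were positive, from 0.01 to 0.84, with a median of 0.20, and none passed the test. Their median against the CD133 low mean was 0.13, 0.19 and 0.44 on CD133 high replicates 1, 2 and 3. The direction of Col11a2 turned without CD133 low replicate 2 (−0.05), those of Col1a2 and Col24a1 without CD133 high replicate 3 (−0.0091 and −0.06), and that of Col2a1 without CD133 high replicate 1 (−0.04) and also without CD133 low replicate 2. Col1a1 and Col1a2 encode the chains of type I collagen, the main collagen of connective tissue. Col1a1 read 13.34, 13.21 and 13.29 in CD133 low and 13.15, 13.85 and 14.00 in CD133 high arrays. Replicate 1 of CD133 high lay below the CD133 low arrays and replicates 2 and 3 above them, and the difference was 0.38 (SE 0.25, adjusted p = 0.452). Col1a2 read 13.61, 13.56 and 13.77 in CD133 low and 13.68, 13.60 and 13.99 in CD133 high arrays, which overlap, with a difference of 0.11 (SE 0.19, adjusted p = 0.779). Col3a1 encodes type III collagen, which is found with type I in soft tissue. It read 13.77, 13.78 and 13.91 in CD133 low and 13.86, 13.88 and 14.13 in CD133 high arrays. Only CD133 high replicate 3 lay above every CD133 low array, and the difference was 0.14 (SE 0.17, adjusted p = 0.696).

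The sequences just before the annotated starts of Col1a2 and Col3a1 are shown because these genes encode chains of the main fibrillar collagens, and that of Col25a1 because it had the largest difference of all 42 genes. They come from the RefSeq promoter table (GRCm38.p6) and lie on the plus strand. Capitals mark CCAAT, the box bound by the factor NF-Y, and TATAAA, the box bound by the general factor TBP, each searched on both strands in the 250 bases before the start.
Col1a2, chr6:4505368-4505617: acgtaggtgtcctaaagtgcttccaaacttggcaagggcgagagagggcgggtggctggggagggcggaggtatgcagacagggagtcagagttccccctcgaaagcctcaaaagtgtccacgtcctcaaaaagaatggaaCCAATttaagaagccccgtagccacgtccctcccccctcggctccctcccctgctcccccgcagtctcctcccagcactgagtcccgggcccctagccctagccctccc
Col3a1, chr1:45311288-45311537: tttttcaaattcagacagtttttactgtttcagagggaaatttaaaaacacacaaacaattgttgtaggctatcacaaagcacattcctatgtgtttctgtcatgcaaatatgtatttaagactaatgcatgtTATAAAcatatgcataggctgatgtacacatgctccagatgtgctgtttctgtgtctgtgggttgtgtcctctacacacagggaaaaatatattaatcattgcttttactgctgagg
Col25a1, chr3:130180595-130180844: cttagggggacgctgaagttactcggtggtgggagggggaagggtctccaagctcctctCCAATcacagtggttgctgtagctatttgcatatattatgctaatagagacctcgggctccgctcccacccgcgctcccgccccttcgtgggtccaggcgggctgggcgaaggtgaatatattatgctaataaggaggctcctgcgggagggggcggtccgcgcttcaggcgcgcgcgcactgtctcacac
A CCAAT match lay 109 bases before the start of Col1a2 and 191 bases before that of Col25a1, and a TATAAA match 117 bases before that of Col3a1. Of the 36 promoters in the table that belong to 33 of the measured collagen genes, 36.1% held CCAAT and 13.9% held TATAAA, against 33.8% and 12.4% of all 32851 promoters. These matches are a description of the letters in this window.

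The chains of type V collagen, which joins type I fibrils and limits their width, showed small differences. Col5a1 read 11.21, 11.41 and 11.03 in CD133 low and 10.94, 11.83 and 11.99 in CD133 high arrays, with the lowest value in CD133 high replicate 1, and differed by 0.37 (SE 0.29, adjusted p = 0.526). Col5a2 read 12.51, 12.57 and 12.62 in CD133 low and 12.46, 12.83 and 13.00 in CD133 high arrays, where replicates 2 and 3 of the CD133 high fraction lay above the rest, and differed by 0.20 (SE 0.19, adjusted p = 0.593). Col5a3 read 11.60, 11.73 and 11.57 in CD133 low and 11.90, 11.83 and 11.71 in CD133 high arrays. All its CD133 high arrays but replicate 3 lay above the CD133 low arrays, and the difference was 0.18 (SE 0.14, adjusted p = 0.526). The differences of Col1a1 and Col5a1 became 0.64 and 0.70 without CD133 high replicate 1 and passed the test (limma, adjusted p = 0.0173 and 0.0247), while without CD133 high replicate 3 they were 0.22 and 0.17. Those of Col3a1 and Col5a2 were 0.05 and 0.08 without CD133 high replicate 3. Without CD133 high replicate 1 the other Col1a1 probe set stood at 0.30 (limma, adjusted p = 0.365). The other Col5a1 probe sets stood at 0.14 and 0.998 in that fit (limma, adjusted p = 0.534 and 0.0079). A dimmer probe set each of Col1a2 and Col5a2 passed there, unlike the brightest, at 0.54 and 0.95 (limma, adjusted p = 0.0308 and 0.0113).

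Col27a1 and Col11a1 differed most among the fibrillar genes, both by 0.84 at their brightest probe sets. Col27a1, a collagen of cartilage and other developing tissues, read 7.91, 7.95 and 8.06 in CD133 low and 8.15, 9.08 and 9.22 in CD133 high arrays. The fractions did not overlap, with CD133 high replicate 1 just above the CD133 low arrays, and the difference was 0.84 (SE 0.29, adjusted p = 0.297). It was 1.18 without CD133 high replicate 1 (limma, adjusted p = 0.0047), where the other Col27a1 probe set stood at −0.02 (limma, adjusted p = 0.929). With probe sets averaged the Col27a1 difference was 0.43, against 0.97 for Col11a1. Col11a1, a minor fibrillar chain of cartilage that is often seen in activated tumour fibroblasts, read 5.27, 6.05 and 6.05 in CD133 low and 6.01, 6.96 and 6.92 in CD133 high arrays. CD133 high replicate 1 lay within the CD133 low range and the other CD133 high arrays above it, and the difference was 0.84 (SE 0.37, adjusted p = 0.328). Without CD133 high replicate 1 it was 1.15 (limma, adjusted p = 0.0536), and 1.76 at the dimmer Col11a1 probe set (limma, adjusted p = 0.0151). Col11a2 read 5.28, 4.91 and 5.49 in CD133 low and 5.36, 5.12 and 5.54 in CD133 high arrays and Col24a1 4.84, 5.03 and 4.60 in CD133 low and 5.20, 4.33 and 5.92 in CD133 high arrays, with overlapping fractions and differences of 0.11 and 0.33 (limma, adjusted p = 0.857 and 0.719). Col2a1, the chain of cartilage collagen, lay between 5.10 and 5.94 on all 6 arrays, with a difference of 0.01 (limma, adjusted p = 0.987).

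Basement membrane collagens did not lean one way. Of the 8 genes 4 were higher and 4 lower, with a median of 0.03, and on CD133 high replicates 1, 2 and 3 the medians were 0.14, −0.13 and −0.28. Without CD133 high replicate 1 the class median was −0.27. Without the dim Col4a6 the median over 7 genes was −0.08, and 0.10, −0.23 and −0.065 on CD133 high replicates 1, 2 and 3. With both that gene and CD133 high replicate 1 left out it was −0.18. No difference of the class passed the test with all 6 arrays. The 6 type IV chains alone had the same median of 0.03, 3 of them being higher and 3 lower. Col4a1 and Col4a2, neighbouring genes that encode the chains of the ubiquitous type IV heterotrimer, differed least of the class at their brightest probe sets. Col4a1 read 12.14, 12.10 and 12.33 in CD133 low and 12.38, 12.17 and 12.47 in CD133 high arrays, a difference of 0.15 (SE 0.16, adjusted p = 0.641), and its direction turned when its probe sets were averaged (−0.09). Its dimmer probe set stood at −0.33, and passed at −0.60 without CD133 high replicate 1 (limma, adjusted p = 0.0179). The brightest stood at 0.13 in that fit (limma, adjusted p = 0.540). Col4a2 read 11.84, 11.62 and 11.71 in CD133 low and 11.82, 11.43 and 11.66 in CD133 high arrays, a difference of −0.08 (SE 0.16, adjusted p = 0.804) that turned to 0.0096 with quantile normalization and to 0.02 without CD133 high replicate 2. In both genes the fractions overlapped, and in Col4a2 CD133 high replicate 2 was the lowest of the 6 arrays.

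**Figure D2:**
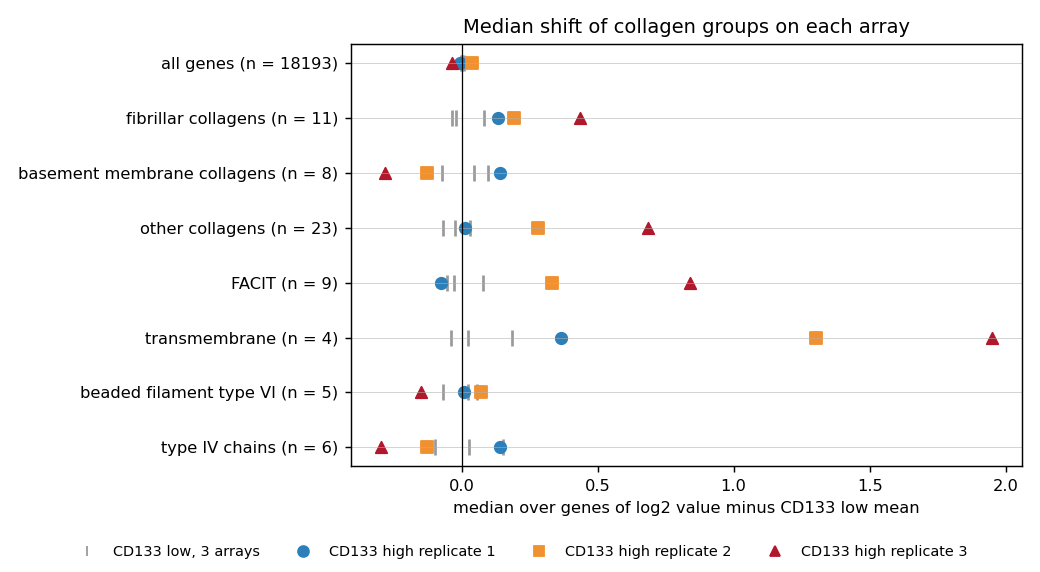
Median over the genes of each group of the log2 value minus the CD133 low mean, with 1 symbol for each array and the number of genes in brackets. On CD133 high replicate 3 the medians run from −0.29 for the type IV chains to 1.95 for the transmembrane collagens, while all genes together lie at −0.04. The type IV chains include the dim Col4a6, at −1.80 on that array, and the transmembrane collagens the dim Col17a1, at 2.95.

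The restricted type IV chains, which replace the ubiquitous ones in kidney, lung and some other basement membranes, went different ways. Col4a5 read 7.16, 7.32 and 7.48 in CD133 low and 7.23, 9.10 and 9.82 in CD133 high arrays. Here CD133 high replicate 1 lay within the CD133 low range and the other CD133 high arrays well above it, and the difference was 1.40 (SE 0.61, adjusted p = 0.327). Once that array was left out it was 2.14 (limma, adjusted p = 0.0056), and without CD133 high replicate 3 it was 0.85. The dimmer Col4a5 probe set stood at 0.72 without CD133 high replicate 1 (limma, adjusted p = 0.23). Col4a6, its neighbour on the X chromosome, was dim, at 2.45, 2.74 and 3.19 in CD133 low and 4.56, 3.86 and 0.99 in CD133 high arrays, a difference of 0.35 (SE 0.92, adjusted p = 0.86) that turned to −0.36 without CD133 high replicate 1 and −0.01 without CD133 high replicate 2. Col4a3 read 7.12, 6.88 and 7.0 in CD133 low and 6.73, 6.77 and 6.48 in CD133 high arrays. All CD133 high arrays lay below the CD133 low arrays, with a difference of −0.34 (SE 0.20, adjusted p = 0.401), but its dimmer probe set stood at 1.85, and the difference turned to 0.75 when both were averaged. Its neighbour Col4a4 read 5.45, 4.65 and 5.93 in CD133 low and 5.55, 3.89 and 4.67 in CD133 high arrays, near the dim range, and differed by −0.64 (SE 0.53, adjusted p = 0.546).

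Collagens XV and XVIII, which lie at the edge of basement membranes and release antiangiogenic fragments, differed in opposite directions. Col15a1 read 9.67, 9.64 and 9.73 in CD133 low and 9.70, 10.26 and 10.88 in CD133 high arrays. The CD133 low arrays and CD133 high replicate 1 were close together, with the other CD133 high arrays above them, and the difference was 0.60 (SE 0.29, adjusted p = 0.348). Col18a1, the source of endostatin, read 9.98, 9.89 and 9.72 in CD133 low and 10.07, 9.19 and 9.37 in CD133 high arrays. Here CD133 high replicate 1 was the highest of the 6 arrays and replicates 2 and 3 the lowest, with a difference of −0.32 (SE 0.25, adjusted p = 0.517). When CD133 high replicate 1 was left out Col15a1 was higher by 0.89 and Col18a1 lower, at −0.59, and both passed the test (limma, adjusted p = 0.0274 and 0.028). Col15a1 stood at 0.30 without CD133 high replicate 3, and Col18a1 at −0.15 without CD133 high replicate 2.

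The 23 other collagens had 17 positive and 6 negative differences, with a median of 0.24, from −1.39 to 1.90. Their 5 genes with all CD133 high arrays above the CD133 low arrays made up 21.7% of the class, against 10.8% of all genes, and 3 of them were transmembrane collagens. Another 2 genes (8.7%, against 12.8% of all genes) had every CD133 high array below. No difference between the classes was tested.

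Transmembrane collagens span the membrane of epithelial, neural and other cells and can be shed from it. All 4 measured genes were higher in CD133 high arrays, with a median of 1.12, and none passed the test. Col17a1 was dim in both fractions, and the median of the 3 others was 0.72. Col25a1, first found as a component of amyloid plaques, had the largest difference of all collagen genes. It read 9.11, 8.19 and 9.12 in CD133 low and 9.20, 11.05 and 11.88 in CD133 high arrays. Its CD133 high replicate 1 lay just above the CD133 low arrays and the other CD133 high arrays far above, and the difference was 1.90 (SE 0.66, adjusted p = 0.297). Col13a1, a collagen of cell adhesion sites and the neuromuscular junction, read 7.25, 7.07 and 7.11 in CD133 low and 7.52, 8.25 and 7.83 in CD133 high arrays, with no overlap and a difference of 0.72 (SE 0.23, adjusted p = 0.297). Col23a1 read 7.61, 7.91 and 7.85 in CD133 low and 8.15, 8.42 and 8.74 in CD133 high arrays, again with no overlap, and differed by 0.65 (SE 0.20, adjusted p = 0.297). Its 2 other probe sets stood at −0.20 and −0.26, and the mean of the 3 differed by 0.06 (limma, adjusted p = 0.865). At their brightest probe sets these 3 genes passed without CD133 high replicate 1, at 2.65, 0.90 and 0.79 (limma, adjusted p = 0.0096, 0.0243 and 0.0265), whereas the other Col23a1 probe sets stood at −0.38 and −0.35 in that fit. With its probe sets averaged Col25a1 differed by 1.10. Its dimmer probe set stood at 0.56 without CD133 high replicate 1 (limma, adjusted p = 0.193). Col17a1, the hemidesmosomal collagen of basal epithelial cells, lay between 0.96 and 5.68 on all 6 arrays.

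Among the 9 FACIT collagens 7 were higher and 2 lower, with a median of 0.23. Col12a1, which binds type I fibrils in dense connective tissue, read 10.97, 10.56 and 11.36 in CD133 low and 10.89, 12.22 and 12.51 in CD133 high arrays. CD133 high replicate 1 lay within the CD133 low range and the other CD133 high arrays above it. The difference was 0.91 (SE 0.44, adjusted p = 0.349), or 1.40 without CD133 high replicate 1 (adjusted p = 0.0162, limma) and 0.59 without CD133 high replicate 3. The next brightest Col12a1 probe set stood at 0.66 without CD133 high replicate 1 (limma, adjusted p = 0.133). Its relative Col14a1 read 10.63, 10.74 and 11.10 in CD133 low and 10.35, 11.16 and 11.66 in CD133 high arrays. The difference was 0.23 (SE 0.34, adjusted p = 0.737), and its direction turned without CD133 high replicate 3 (−0.07). Without CD133 high replicate 1 it was 0.59 (limma, adjusted p = 0.104). The next brightest Col14a1 probe set differed by 0.66, and passed at 1.23 without CD133 high replicate 1 (limma, adjusted p = 0.0111). Col19a1, a rare collagen of basement membrane zones, had the smallest p of the collagen genes. It read 5.28, 5.11 and 5.31 in CD133 low and 5.87, 6.83 and 7.36 in CD133 high arrays. The fractions did not overlap, and the difference was 1.46 (SE 0.40, adjusted p = 0.288), or 1.86 without CD133 high replicate 1 (adjusted p = 0.0096, limma). With its 3 probe sets averaged, 2 of them dim, it was 0.86 (adjusted p = 0.493, limma). Col16a1, chosen after its values were seen, read 9.85, 9.83 and 9.96 in CD133 low and 9.78, 11.07 and 11.02 in CD133 high arrays, a difference of 0.74 (SE 0.35, adjusted p = 0.343). Without that first CD133 high array it was 1.16, with the smallest adjusted p of a collagen gene in that fit (limma, 0.0031).

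The largest negative difference was also that of a FACIT gene. Col20a1, chosen after its values were seen, read 6.58, 6.51 and 6.58 in CD133 low and 6.12, 3.94 and 5.44 in CD133 high arrays. The CD133 low arrays lay close together and every CD133 high array below them, with a difference of −1.39 (SE 0.54, adjusted p = 0.305), or −1.86 without CD133 high replicate 1 (adjusted p = 0.0423, limma). Col22a1 lay between 4.41 and 5.41 on all 6 arrays. Col9a1, a chain of cartilage collagen IX, lay between 5.11 and 5.39, and its partners Col9a2 and Col9a3 were dim in both fractions.

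The 5 chains of type VI collagen, a beaded filament around many cells, differed by −0.56 to 0.24, and none passed the test. Col6a1, Col6a2 and Col6a3 encode its main chains. Col6a1 read 12.53, 12.37 and 12.62 in CD133 low and 12.52, 12.79 and 12.92 in CD133 high arrays and differed by 0.24 (SE 0.17, adjusted p = 0.501). Col6a2 read 12.84, 12.96 and 12.92 in CD133 low and 12.92, 12.56 and 12.76 in CD133 high arrays and differed by −0.16 (SE 0.16, adjusted p = 0.622). Col6a3 read 12.33, 12.16 and 12.29 in CD133 low and 12.27, 12.53 and 12.69 in CD133 high arrays and differed by 0.24 (SE 0.17, adjusted p = 0.493). In Col6a1 and Col6a3 CD133 high replicates 2 and 3 lay above all CD133 low arrays, and in Col6a2 below them. Col6a1 and Col6a2 are neighbours in the genome. The longer alternative chains Col6a4 and Col6a5, chosen after their values were seen, stood at −0.45 and −0.56 (limma, adjusted p = 0.639 and 0.441), and Col6a5 is 1 of the 3 genes with all CD133 high arrays below, by less than 0.01 at its nearest pair (5.28 against 5.28).

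The short-chain collagens VIII and X form hexagonal networks. Col8a1, a collagen of vessel walls and of remodelled tissue, read 10.30, 10.37 and 10.52 in CD133 low and 10.62, 11.01 and 11.35 in CD133 high arrays. The fractions did not overlap, and the difference was 0.60 (SE 0.21, adjusted p = 0.297). All 3 of its probe sets had fractions that did not overlap, with differences from 0.55 to 0.69. Its partner Col8a2, chosen after its values were seen, read 7.64, 7.61 and 7.45 in CD133 low and 7.39, 8.48 and 8.41 in CD133 high arrays and differed by 0.52 (SE 0.31, adjusted p = 0.414). At their brightest probe sets both passed without CD133 high replicate 1, at 0.79 and 0.88 (limma, adjusted p = 0.0173 and 0.0114). The other Col8a1 probe sets stood at 0.87 and 0.63 in that fit (limma, adjusted p = 0.0286 and 0.0883). Col10a1, the collagen of hypertrophic cartilage, was listed at 0 on 3 of 6 arrays. Col7a1, the anchoring fibril of skin, lay between 9.32 and 9.88 and differed by 0.09 (limma, adjusted p = 0.832). Col26a1, chosen after its values were seen, read 8.56, 8.74 and 8.21 in CD133 low and 8.32, 7.43 and 7.52 in CD133 high arrays, a difference of −0.75 (SE 0.28, adjusted p = 0.303) that passed at −1.03 without CD133 high replicate 1 (limma, adjusted p = 0.0179).

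In all 5 collagen genes stood below 5 in both fractions, namely Col4a6, Col9a2, Col9a3, Col10a1 and Col17a1. Without them the median of the 37 remaining genes was 0.20, with 27 positive and 10 negative differences. The counts of genes whose fractions do not overlap, 6 above and 3 below, rest on these 37 genes as well.

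Several probe sets of 1 gene could differ in size and direction. Of the 27 collagen genes with more than 1 probe set, 17 had at least 2 with a mean of 5 or more, and in 15 of these all such probe sets differed in the same direction. The exceptions were Col23a1, whose probe sets ran from −0.26 to 0.65, and Col4a1, whose probe sets ran from −0.33 to 0.15. The 2 probe sets of Col25a1 differed by 1.90 and 0.30, those of Col4a5 by 1.40 and 0.44, and those of Col27a1 by 0.84 and 0.01. The larger difference belonged to the brighter probe set in these 3 genes. For Col27a1 that probe set was the brighter one only through the CD133 high arrays, since its CD133 low mean was 7.97 against 8.05. By contrast the probe sets with a mean of 5 or more spanned 0.09 to 0.16 in Col8a1, Col3a1, Col6a2 and Col20a1. The 2 dimmer probe sets of Col20a1 stood at −0.79 and 0.09. When all probe sets of a gene were averaged, 3 collagen genes had all CD133 high arrays above and 2 all below the CD133 low arrays. The share over all genes in that setting is not given here. Whether the probe sets read different transcript forms was not tested.

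**Figure D3:**
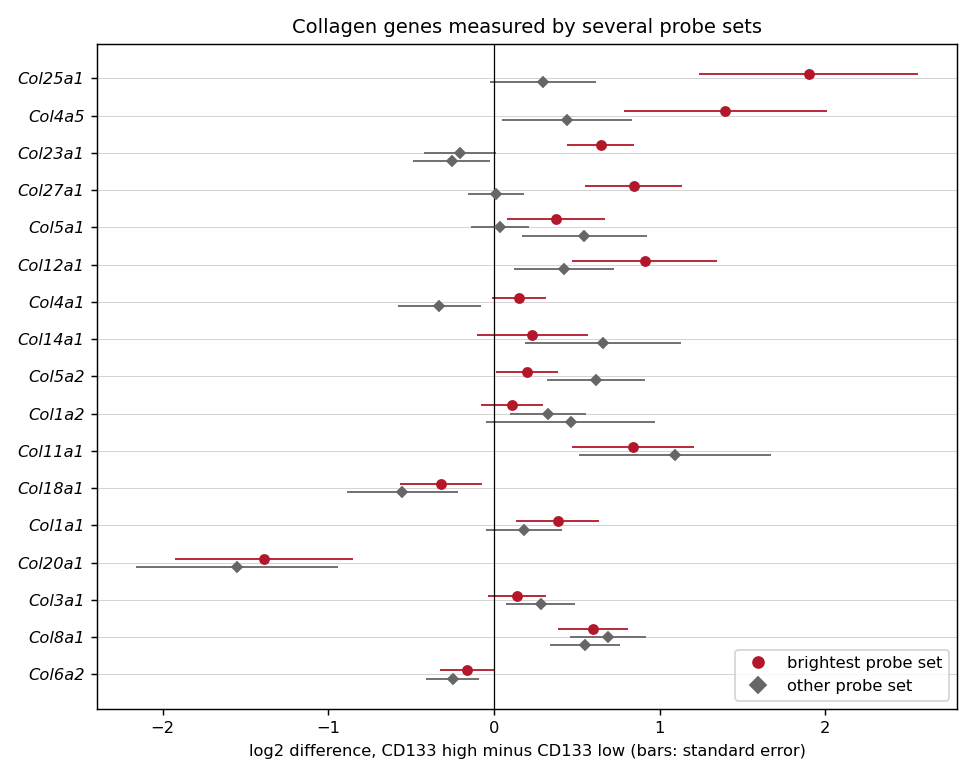
Log2 difference between fractions (CD133 high minus CD133 low, with its standard error from limma) for each probe set with a mean of 5 or more, in the 17 collagen genes that have at least 2 of them. Red circles are the brightest probe set of a gene and grey diamonds the others: the spread within a gene is widest for Col25a1, at 0.30 and 1.90.

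Genes that make, assemble, bind or degrade collagen were not called either with all 6 arrays. Of 65 genes in 5 lists 60 had a probe set of their own, and 0 passed the test in limma, against 0.022% of all genes called higher and 0.231% called lower. Before adjustment 3 of the 60 were higher at 0.05 and 2 lower (5% and 3.33%, against 8.3% and 9.94% of all genes). Once CD133 high replicate 1 was left out, 11 passed higher and 5 lower (18.3% and 8.33%, against 11.7% and 14.6% of all genes). The list medians lay between −0.09 and 0.11.

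Of 20 enzymes and chaperones that modify procollagen in the endoplasmic reticulum, 13 were higher and 7 lower. P4ha1, a catalytic subunit of the prolyl hydroxylase that stabilises the triple helix, read 11.41, 11.28 and 11.65 in CD133 low and 11.98, 11.75 and 11.88 in CD133 high arrays. Its fractions did not overlap, and the difference was 0.42 (SE 0.16, adjusted p = 0.304). Plod2, the lysyl hydroxylase of the chain ends, differed by 0.64 (SE 0.26, adjusted p = 0.314) and its relative Plod3 by −0.45 (SE 0.21, adjusted p = 0.341). Ppib, a prolyl isomerase that speeds helix folding, read 13.07, 13.03 and 12.98 in CD133 low and 12.84, 12.19 and 11.82 in CD133 high arrays. All CD133 high arrays lay below the CD133 low arrays, and the difference was −0.74 (SE 0.27, adjusted p = 0.3). Ppib and Plod3 passed lower without CD133 high replicate 1, at −1.02 and −0.63 (limma, adjusted p = 0.0089 and 0.0357). In that fit 3 of the 20 genes passed higher and 2 lower, where 11.7% and 14.6% of all genes did. The higher ones were Creb3l1, Colgalt2 and Colgalt1, at 1.03, 0.71 and 0.39 (limma, adjusted p = 0.0206, 0.0253 and 0.0423). They were chosen after their values were seen. Serpinh1, the collagen-specific chaperone HSP47, lay between 11.76 and 12.08 on all 6 arrays. Serpinh1 was chosen after its values were seen.

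Of 11 genes that process and cross-link procollagen 8 were higher and 3 lower. Lox, the lysyl oxidase that starts cross-linking, read 10.22, 10.33 and 10.97 in CD133 low and 10.59, 11.47 and 12.22 in CD133 high arrays. CD133 high replicates 2 and 3 lay above all CD133 low arrays, and the difference was 0.92 (SE 0.42, adjusted p = 0.336). Bmp1, which removes the carboxy-terminal propeptide, was higher by 0.42 (SE 0.21, adjusted p = 0.355), and its fractions did not overlap. Pcolce, which enhances that cleavage, went the other way and read 11.68, 11.75 and 11.46 in CD133 low and 11.41, 9.98 and 10.14 in CD133 high arrays. All CD133 high arrays lay below the CD133 low arrays, and the difference was −1.12 (SE 0.37, adjusted p = 0.297). Adamts3, which removes amino-terminal propeptides, differed by −0.43 (SE 0.25, adjusted p = 0.408). Lox and Pcolce changed call without CD133 high replicate 1: Lox passed higher at 1.34 and Pcolce lower at −1.57 (limma, adjusted p = 0.0348 and 0.0029). In that fit 3 of the 11 genes passed higher and 1 lower, where 11.7% and 14.6% of all genes did. The other higher ones were Tll1 and Loxl1, at 1.38 and 0.50 (limma, adjusted p = 0.029 and 0.0286). Both were chosen after their values were seen.

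Of 13 proteins that regulate fibrils or bind collagen 8 were higher and 5 lower. For 11 of them CD133 high replicate 3 was the highest of the 6 arrays (84.6%, against 21.1% of all genes). Thbs2, a matricellular protein that shapes fibrils, differed by 0.81 (SE 0.35, adjusted p = 0.326), and by 1.15 without CD133 high replicate 1 (adjusted p = 0.0326, limma). Matn2, an adaptor protein of the matrix, differed by 0.43 (SE 0.23, adjusted p = 0.374), or 0.65 without that array (adjusted p = 0.0267, limma), and the small leucine-rich proteoglycans Lum and Fmod by 0.37 and −0.42 (limma, adjusted p = 0.439 and 0.458). With CD133 high replicate 1 left out, 3 of the 13 genes passed higher and 0 lower, where 11.7% and 14.6% of all genes did. Besides Thbs2 and Matn2 this was Dpt, chosen after its values were seen, at 1.12 (limma, adjusted p = 0.0059). Dcn, Sparc, Fn1, Postn and Bgn, chosen after their values were seen, differed by −0.03, −0.07, 0.09, 0.08 and 0.22.

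Collagen receptors were divided, with 4 of 9 higher and 5 lower. Mrc2, an endocytic receptor of fibroblasts that takes up collagen fragments, read 9.55, 9.54 and 9.78 in CD133 low and 9.56, 11.12 and 11.24 in CD133 high arrays. CD133 high replicate 1 lay within the CD133 low range and the other CD133 high arrays above it, and the difference was 1.01 (SE 0.44, adjusted p = 0.325). Ddr2, a tyrosine kinase receptor of fibrillar collagen, differed by 0.62 (SE 0.32, adjusted p = 0.366). Itgb1, the integrin chain shared by the collagen-binding integrins, read 10.80, 10.49 and 11.08 in CD133 low and 11.42, 11.13 and 11.36 in CD133 high arrays, with no overlap and a difference of 0.51 (SE 0.19, adjusted p = 0.303). The platelet receptor Gp6 was dim, between 2.50 and 4.67 on all 6 arrays. Without CD133 high replicate 1 Mrc2 and Ddr2 passed at 1.56 and 0.97 (limma, adjusted p = 0.0026 and 0.016). Ddr1, another collagen-binding kinase, chosen after its values were seen, passed lower there at −0.57 (limma, adjusted p = 0.0155). In that fit 2 of the 9 genes passed higher and 1 lower, where 11.7% and 14.6% of all genes did.

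Of 7 proteases that degrade collagen 4 were higher and 3 lower. Mmp14, a membrane-bound collagenase, differed by 0.27 (SE 0.17, adjusted p = 0.444) and the collagenase Mmp13 by 0.24 (SE 0.23, adjusted p = 0.591). Mmp2 and Ctsk, a gelatinase and a cathepsin that cleaves triple helices, differed by −0.38 and −0.35 (limma, adjusted p = 0.515 and 0.413). The collagenase Mmp8, chosen after its values were seen, was the 1 protease past the test without CD133 high replicate 1, at −0.66 (limma, adjusted p = 0.0166). In that fit 0 of the 7 genes passed higher and 1 lower, where 11.7% and 14.6% of all genes did.

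**Figure D4:**
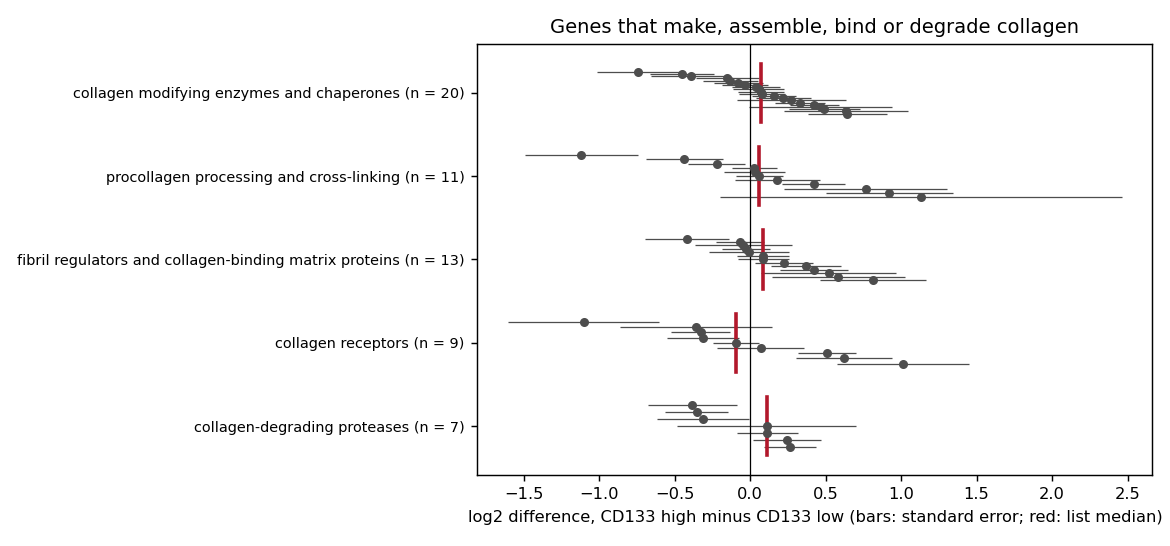
Log2 difference between fractions (CD133 high minus CD133 low, with its standard error from limma) for each measured gene of the 5 lists, with the list median as a red line. Genes lie on both sides of 0 in every list, from −1.12 for Pcolce to 1.13 for the dim Tll2, and the medians lie between −0.09 and 0.11.

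Markers of the cells that such a sort could hold are given beside the collagens. The labelled epithelial tumour cells were seen on all arrays, with Epcam between 10.20 and 10.86 and Krt8 between 12.26 and 12.95, but so were leukocytes, with Ptprc between 12.74 and 13.20. Of 11 fibroblast markers 7 were higher and 4 lower, with 0 past the test in limma and a median of 0.01. Before adjustment 1 was higher at 0.05 and 2 lower, where 8.3% and 9.94% of all genes were. Their summed level, the sum of the values as powers of 2, ranged from 22020 to 23930 on the CD133 low arrays and from 20590 to 28350 on the CD133 high arrays. Pdgfra, a receptor of fibroblasts, differed by 0.59 (SE 0.29, adjusted p = 0.352) and Tcf21, a transcription factor of mesenchyme, by 0.71 (SE 0.26, adjusted p = 0.3). Thy1, a surface protein of fibroblasts and T cells, read 11.64, 11.70 and 11.60 in CD133 low and 11.19, 9.98 and 10.29 in CD133 high arrays, with all CD133 high arrays below, a difference of −1.16 (SE 0.31, adjusted p = 0.281). Clec3b, a plasminogen-binding lectin, was lower in the same way, at 7.83, 7.99 and 7.78 in CD133 low and 7.11, 6.65 and 7.51 in CD133 high arrays, a difference of −0.78 (SE 0.25, adjusted p = 0.297). With CD133 high replicate 1 left out, 4 fibroblast markers passed higher and 2 lower in limma, where 11.7% and 14.6% of all genes did, Pdgfra at 0.92 and Thy1 at −1.51 among them. No defining marker of fibroblasts was at 0. The part of fibroblasts in the collagen values was not tested.

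Pericyte and smooth muscle markers had a median of −0.007 over 11 genes, and summed to 12330 to 13140 on the CD133 low and 12470 to 12650 on the CD133 high arrays. Endothelial markers had a median of 0.05 over 10 genes, and summed to 2874 to 3496 and 2978 to 3753. Epithelial markers had a median of −0.03 over 10 genes, and summed to 21910 to 25160 and 19820 to 27420. None of these 3 lists held a gene past the test in limma, and 1 gene, Cldn7 at −0.73, had an unadjusted p under 0.05. Leukocyte markers had a median of −0.64 over 10 genes, and 2 chains of the lymphocyte antigen receptors passed the test: Cd3e fell by 2.34 and Cd79a fell by 3.06 (limma, adjusted p = 0.023 and 0.0168), where 0.231% of all genes were called lower. The list median was 0.05 on CD133 high replicate 1, −0.92 on replicate 2 and −1.06 on replicate 3. Leaving out replicate 1 gave −1.02, with 6 of the 10 called lower, against 14.6% of all genes. Leukocyte markers summed to 65280 to 67080 on the CD133 low arrays and 44900 to 66250 on the CD133 high arrays. Chondrocyte and bone markers had a median of 0.21 over 5 genes and summed to 1006 to 1241 on the CD133 low and 1437 to 2339 on the CD133 high arrays. Acan, a cartilage proteoglycan among them, read 9.64, 9.26 and 9.18 in CD133 low and 10.84, 10.06 and 10.21 in CD133 high arrays, with no overlap and a difference of 1.01 (SE 0.25, adjusted p = 0.259). It was the brightest of the 5 genes on every array and weighs most in these sums. Of the 5 genes 3 were higher and 2 lower, among them Sox9 at 0.38, Comp at −0.42 and Ibsp at −0.79. Skeletal muscle markers had a median of −0.78 over 6 genes, and summed to 249 to 297 and 200 to 246. Acta1, Tnnt3, Mylpf and Myh4 among them lay in or near the dim range. Their means were 4.53, 5.03, 4.68 and 5.26 in CD133 low and 2.09, 2.31, 3.75 and 4.63 in CD133 high arrays. Adipocyte, keratinocyte and Schwann cell markers had medians of −0.52, 0.05 and −0.08. Their sums ran from 3185 to 4882, from 657 to 743 and from 978 to 1271 in CD133 low, and from 1655 to 4628, from 711 to 1001 and from 686 to 1170 in CD133 high arrays. No gene of these last 5 lists passed the test in limma. No marker of any list was at 0 on every array, and their part in the collagen values was not tested.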

How the data were processed

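RNA from sorted fractions was measured on Affymetrix mouse arrays, 3 per fraction. The deposited log2 values are used as they stand. Their probe summary and normalization are not stated by any label or header, and are therefore unknown. The labels' design text names a chip smaller than the table of 45101 probe sets. Leaving out 64 control probe sets, 45037 were fitted with limma 3.58.1 (R 4.3.3, variance trend, no covariate, all 6 arrays), two-sided, with Benjamini-Hochberg adjustment over all of them and a threshold of 0.05. All adjusted p-values come from this fit unless an array is said to be left out or probe sets to be averaged. The fit of averaged probe sets was adjusted over genes. Gene names come from the platform annotation; 932 probe sets name several genes and 9160 none, and neither were used for genes. All 42 collagen genes matched the RefSeq table by Entrez gene.

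The members and gene lists were chosen with earlier results of these data known. Array values are given for up to 6 collagen genes per class with the highest mean and 4 more with the smallest p, and for other lists up to 4 genes with the smallest p; further genes are said to be chosen after their values were seen or are given by range. Replicates were numbered in accession order. On simulated data with the spread of all 6 arrays, the fit recovered 0.0%, 29.9% and 55.4% of probe sets changed by 1, 2 and 3, with 2 false calls, and with only CD133 low arrays setting the spread 25.7%, 64.8% and 74.6%, with 11. The number of arrays limits the precision. Alternatives covered normalization, dim values, the variance model, the choice of probe set and each array left out.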

Additional observations from a re-analysis of the deposited data

How the results depend on the processing

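The number of collagen genes past the threshold was 0 in the fit of all 6 arrays, 9 with array weights (8 higher and 1 lower), and 0 to 16 with 1 array left out, the 16 without CD133 high replicate 1. Array weights gave that array a weight of 0.248. Over all probe sets the count was 82, against 157 with equal 75th percentiles, 190 without the dimmest 25%, 36 with values below 5 set to 5, 7 without the variance trend and 4808 with array weights, and 0 to 9603 with 1 array left out. Collagen genes whose fractions do not overlap numbered 9, against 5 when all probe sets of a gene were averaged and 11 to 25 with 1 array left out. The 25, without CD133 high replicate 1, were 19 above and 6 below (45.2% and 14.3%, against 28.3% and 29.2% of all genes). The shares over all genes in the other settings are not given here. Fewer arrays separate more easily, so counts with 1 array left out cannot be set against the 9. The class medians with 1 array left out ran from 0.08 to 0.31 for fibrillar, from −0.27 to 0.0655 for basement membrane and from 0.15 to 0.37 for other collagens. Over all 42 genes the median was 0.12 without CD133 high replicate 3 and 0.17 with values below 5 set to 5, where 28 differences were positive. Of 390 values for the 28 collagen genes chosen by the rule on mean and p, 12 reversed. With probe sets averaged Col4a1 was −0.089, Col4a3 0.75 and Col4a6 −0.48, with array weights Col4a6 was −0.19, and with quantile normalization Col4a2 was 0.0096. With 1 array left out, Col11a2 ran from −0.047 to 0.24, Col14a1 from −0.0714 to 0.59, Col1a2 from −0.0091 to 0.19, Col24a1 from −0.057 to 0.74, Col4a2 from −0.18 to 0.0165 and Col4a6 from −0.36 to 1.42. The cause was not tested. Col4a6 gives no value with values below 5 set to 5, since all its values lie below. No paired analysis was possible because the labels carry no replicate numbers.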
